A study of Homo sapiens with 9 samples.

Results

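The genes described here encode the enzymes that make and break down polyamines and the proteins that set the stability of the first of these enzymes. They were taken by symbol as 10 named genes: ODC1, AMD1, SRM and SMS of synthesis, the antizymes OAZ1 and OAZ2, the antizyme inhibitor AZIN1, and SAT1, SMOX and PAOX of catabolism. All 10 were among the 57820 genes with FPKM values, a read density scaled for transcript length and library size, and 9 were among the 17518 genes with normalized read counts. PAOX was listed in FPKM only, so it was not tested. The study treated COR-L279, an established human small cell lung cancer line of the NEUROD1-high subtype (SCLC-N), with JQ1 for 24 h and sequenced total RNA. JQ1 is a small molecule that blocks the acetyl-lysine pockets of BET bromodomain proteins. One group received the solvent DMSO, another JQ1 at 0.5 µM and the last JQ1 at 1.5 µM, with 3 libraries labelled as biological replicates in each. The cells of all groups carried the same wild-type genotype label and grew in serum-containing medium, and a single cell line stands for the subtype.

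Polyamines (putrescine, spermidine and spermine) are small cations that bind RNA and DNA and are needed for growth. Ornithine decarboxylase (ODC1) makes putrescine from ornithine, and spermidine synthase (SRM) and spermine synthase (SMS) extend it with aminopropyl groups supplied through S-adenosylmethionine decarboxylase (AMD1). Antizymes are made by a polyamine-induced ribosomal frameshift, bind ODC1 protein and send it to the proteasome, so that the pathway is regulated after transcription as well as before it, and ODC1 is a textbook target of MYC.

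The libraries held between 60721187 and 88482001 reads in genes. NEUROD1 lay between 264 and 365 FPKM, INSM1 between 326 and 368 and CHGA between 362 and 537, while POU2F3 and YAP1, which mark other subtypes, reached at most 0.10 and 0.59 FPKM. The 5 immune markers were all under 0.5 FPKM in every library. A list of 10 non-neuroendocrine and mesenchymal markers summed to 116 to 122 FPKM in DMSO, 58.6 to 71.5 at 0.5 µM and 53.4 to 62.4 at 1.5 µM, and 4 of its genes (AXL, CAV1, COL1A1 and REST) stayed under 0.5 FPKM. CD44 made up most of the fall, at 81.1, 38.3 and 30.5 FPKM on average. Of the 8 tested genes of this list 2 were called higher (FN1 and REST), 3 lower and 3 in neither direction at each dose. Over all tested genes, 70.0% were called at 0.5 µM and 73.1% at 1.5 µM. LUM, not called, ranged from 0.29 to 0.51 FPKM in DMSO, 0.02 to 4 at 0.5 µM and 0.06 to 2.92 at 1.5 µM. ANXA1, also not called, ranged from 1.55 to 1.92, 0.05 to 3.13 and 0.04 to 4.76 FPKM in these groups. The part of this shift in the results below was not tested. A set of 3 libraries (0.5 µM replicate 3 and 1.5 µM replicates 1 and 2) stood apart by H19, at 1476 to 2071 normalized counts against 1.04 to 82.8 in the others. They also stood apart by SLC2A3, at 390 to 489 normalized counts against 0 to 3.52. The library of 0.5 µM replicate 2 stood apart on the second principal component of all genes, at -50.6 against -11.3 to 25.2 in the rest.

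Start-site sequence was available for 7 of the 10 genes, in 10 windows of 300 bases (250 before and 50 after a RefSeq start, GRCh38.p14). SMOX, PAOX and AZIN1 were not matched. The windows were searched on both strands. The first motif was CACGTG, the E-box that MYC and MAX bind, which reads the same on either strand. The second motif was the box named CCAAT, whose reverse complement (ATTGG) is also in capitals where it was found. The last motif was the box named TATAA. Matches of different motifs did not overlap one another. CACGTG was found in ODC1 and SRM only among the 7 genes, in 2 of their 10 windows, against 7.26% of all 35116 windows. The following stretches are written 5′ to 3′ along the gene, with matches in capitals. They were picked by gene and motif: ODC1 and SRM for CACGTG, SAT1 for CCAAT and AMD1 for TATAA. The other ODC1 window, not shown, holds no E-box and has TATAA 32 bases before its start. Another AMD1 window, also not shown, holds no TATAA and has a CCAAT match 21 bases before its start. The ODC1 stretch (chr2:10447963-10448120, minus strand) lies between the exons that the GENCODE annotation gives for this gene. It holds 2 E-boxes, 29 bases before and 6 bases after an inner RefSeq start.
ODC1: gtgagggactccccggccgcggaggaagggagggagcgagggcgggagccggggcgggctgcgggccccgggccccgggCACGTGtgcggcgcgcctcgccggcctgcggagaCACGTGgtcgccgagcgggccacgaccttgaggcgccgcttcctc
The SRM stretch (chr1:11060025-11060268, minus strand) lies before the first exon and holds an E-box 199 bases before the start and CCAAT matches 110 and 80 bases before it.
SRM: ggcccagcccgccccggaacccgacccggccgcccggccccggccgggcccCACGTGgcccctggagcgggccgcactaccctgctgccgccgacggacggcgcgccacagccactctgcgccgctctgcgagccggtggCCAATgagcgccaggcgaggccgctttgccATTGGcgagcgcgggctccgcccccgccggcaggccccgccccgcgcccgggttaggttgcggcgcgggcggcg
The SAT1 stretch (chrX:23782923-23783172, plus strand) holds CCAAT matches 79 and 13 bases before the start and no E-box.
SAT1: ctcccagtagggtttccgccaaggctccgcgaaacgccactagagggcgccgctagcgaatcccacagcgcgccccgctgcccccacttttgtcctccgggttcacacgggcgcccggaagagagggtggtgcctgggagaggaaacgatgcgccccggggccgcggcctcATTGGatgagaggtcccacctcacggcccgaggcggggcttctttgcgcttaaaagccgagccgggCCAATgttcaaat
The AMD1 stretch (chr6:110874535-110874769, plus strand) holds TATAA 29 bases before the start.
AMD1: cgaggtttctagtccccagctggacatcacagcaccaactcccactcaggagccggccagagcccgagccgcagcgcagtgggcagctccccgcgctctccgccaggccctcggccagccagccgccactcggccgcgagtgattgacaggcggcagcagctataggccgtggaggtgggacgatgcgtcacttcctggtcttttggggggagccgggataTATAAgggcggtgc
CCAAT was present in 5 of the 10 windows, of SRM, SAT1, OAZ1, SMS and AMD1, against 34.6% of all windows. TATAA was present in 4 of the 10, of ODC1, OAZ1 and AMD1, where a pair of nearly identical windows shares 1 match, against 20.4%. A match is a run of letters and not a measured binding site.

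Per transcript length, OAZ1 was the most abundant of the 10 genes in DMSO, at 917 ± 35.3 FPKM (mean ± SD, n = 3, as for all values given in this form), which ranked it 109th of 57820 genes. ODC1 followed at 214 ± 2.95 FPKM, SRM at 130 ± 2.60, SMS at 117 ± 4.16, AZIN1 at 68.9 ± 3.01, OAZ2 at 47.5 ± 0.774 and AMD1 at 36.9 ± 1.34. The catabolic genes were far lower, with SMOX at 2.98 ± 0.146 FPKM, SAT1 at 2.28 ± 0.0757 and PAOX at 0.133 ± 0.118. No pair of neighbours in this order overlapped between DMSO libraries. The order differed in the treated groups: SRM, the third gene in DMSO, came after SMS and AZIN1 at both doses, at 76.7 ± 6.16 FPKM at 0.5 µM, where it overlapped AZIN1 (78.2 ± 4.29), and 75.2 ± 2.68 at 1.5 µM, where it overlapped OAZ2 (71.5 ± 2.45). SAT1 exceeded SMOX at both doses without overlap, at 5.17 ± 0.494 against 3.64 ± 0.355 FPKM and at 6.24 ± 0.497 against 3.59 ± 0.235. OAZ1 remained the first gene, at 1252 ± 48.6 and 1267 ± 27.7 FPKM.

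**Figure D1:**
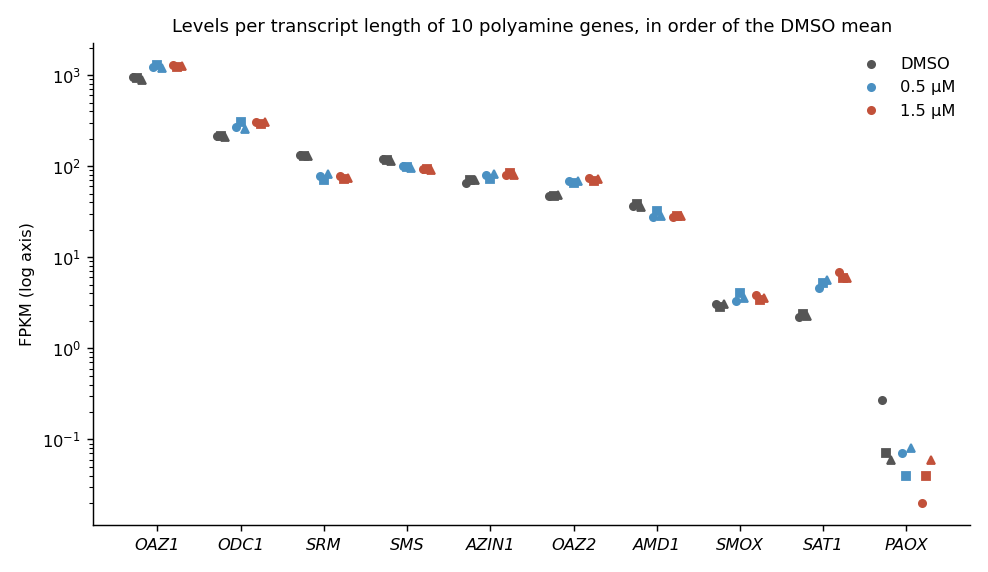
Levels of the 10 polyamine genes in FPKM (log axis) in each of the 9 libraries, with circles, squares and triangles for replicates 1, 2 and 3 and grey, blue and red for DMSO, 0.5 µM and 1.5 µM JQ1. OAZ1 lies near 1000 FPKM, the synthesis genes between 27.9 and 309, SMOX and SAT1 under 7 and PAOX under 0.3.

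JQ1 was compared with DMSO at each dose to see which steps of polyamine metabolism moved at the RNA level, and both comparisons share the 3 DMSO libraries. After 24 h, RNA of the last steps of synthesis and of AMD1 was lower, while RNA of ODC1, of both antizymes, of AZIN1 and of the catabolic enzymes SAT1 and SMOX was higher. SAT1 moved most, 2.24-fold up at 0.5 µM and 2.78-fold up at 1.5 µM, and SRM moved next, 1.66-fold and 1.65-fold down. In bulk RNA, a change in the make-up of the culture and a change in RNA per cell cannot be told apart.

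All 9 tested genes passed the limma threshold at 0.5 µM, 6 higher and 3 lower, where 70.0% of the 17514 tested genes passed (35.3% higher and 34.7% lower). The same 6 and 3 passed at 1.5 µM, where 73.1% of all tested genes did (36.9% higher and 36.2% lower). Treated and DMSO libraries did not overlap in any of the 9 genes at either dose, against 72.6% and 81.7% of all tested genes. A call was therefore common in these comparisons, and the size of a change separates genes better than the call. The median size of the log2 fold change was 0.38 at 0.5 µM and 0.52 at 1.5 µM over the 9 genes, against 0.38 and 0.43 over all tested genes, and the signed medians were 0.33 and 0.32 against -0.010 and -0.0030. SAT1 alone was called with at least a 2-fold change, against 14.9% and 18.8% of all tested genes. Its change was larger than that of 87.6% and 89.6% of tested genes, and that of SRM larger than 74.6% and 69.8%. SMS and AZIN1 had the smallest changes at both doses, larger than between 26.9% and 32.7% of tested genes.

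**Figure D2:**
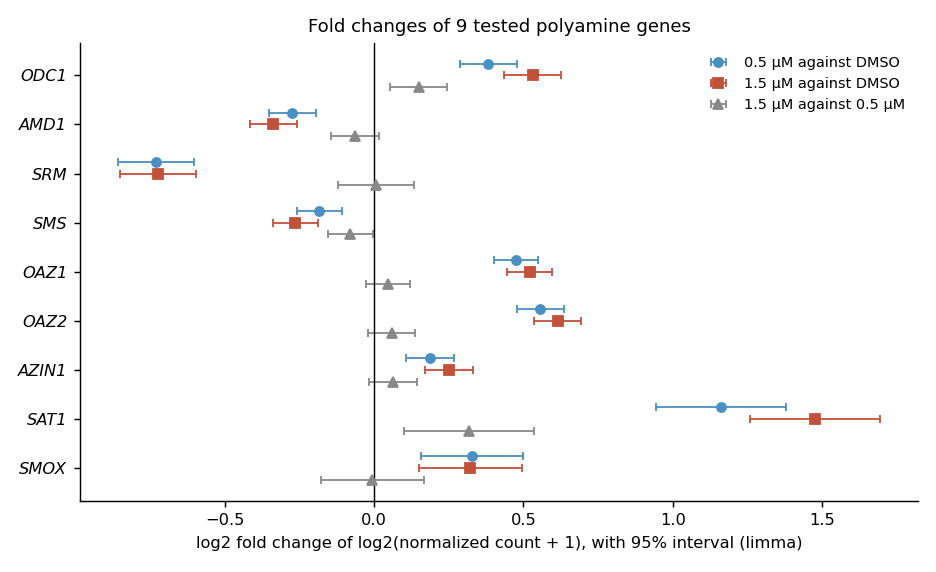
Log2 fold changes of the 9 tested genes on the log2(normalized count + 1) scale, with 95% intervals from limma, for 0.5 µM against DMSO (blue circles), 1.5 µM against DMSO (red squares) and 1.5 µM against 0.5 µM (grey triangles). AMD1, SRM and SMS lie left of 0 and the other 6 right of it in both DMSO comparisons, and the intervals between the doses span 0 except for ODC1, SMS and SAT1.

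Of the 4 synthesis genes, ODC1 rose and the other 3 fell. ODC1, the first enzyme of the pathway, had 30182, 29730 and 29299 normalized counts in DMSO, 38109, 41627 and 36704 at 0.5 µM, and 43238, 42043 and 43699 at 1.5 µM. Every treated library lay above every DMSO library, and 0.5 µM replicate 2 came near the libraries of the higher dose. The log2 fold change was 0.38 ± 0.043 (SE) at 0.5 µM (limma, adjusted p = 1.71e-05) and 0.53 ± 0.043 at 1.5 µM (adjusted p = 1.02e-06), or 1.30-fold and 1.45-fold.

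SRM, which makes spermidine from putrescine, had 9709, 9396 and 9306 normalized counts in DMSO, 5895, 5144 and 6135 at 0.5 µM, and 5885, 5609 and 5719 at 1.5 µM. The treated libraries all lay far under the lowest DMSO library, with 0.5 µM replicate 2 the lowest of the 9. SRM fell by 39.6% at 0.5 µM and by 39.4% at 1.5 µM, with log2 fold changes of -0.73 ± 0.057 (SE; limma, adjusted p = 1.07e-06) and -0.72 ± 0.057 (adjusted p = 8.48e-07). SRM and ODC1, the pair of genes with an E-box in the sequences shown above, thus moved in opposite directions.

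AMD1, which supplies the aminopropyl donor to both synthases, had 7505, 7672 and 7578 normalized counts in DMSO, 6170, 6615 and 6058 at 0.5 µM, and 6057, 5953 and 6005 at 1.5 µM. The groups treated with JQ1 lay under DMSO without overlap. The log2 fold change of AMD1 was -0.27 ± 0.036 (SE) at 0.5 µM (limma, adjusted p = 5.19e-05) and -0.34 ± 0.036 at 1.5 µM (adjusted p = 8.41e-06). SMS, which makes spermine from spermidine, changed least of the 4: it had 12292, 12097 and 11454 normalized counts in DMSO, 10607, 10750 and 10197 at 0.5 µM, and 9942, 9915 and 9984 at 1.5 µM. Its log2 fold change was -0.18 ± 0.034 (SE) at 0.5 µM (limma, adjusted p = 0.000661) and -0.26 ± 0.034 at 1.5 µM (adjusted p = 3.97e-05). The 1.5 µM libraries of SMS were the tightest group of any of the 9 genes, with a coefficient of variation (SD over mean) of 0.347%.

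**Figure D3:**
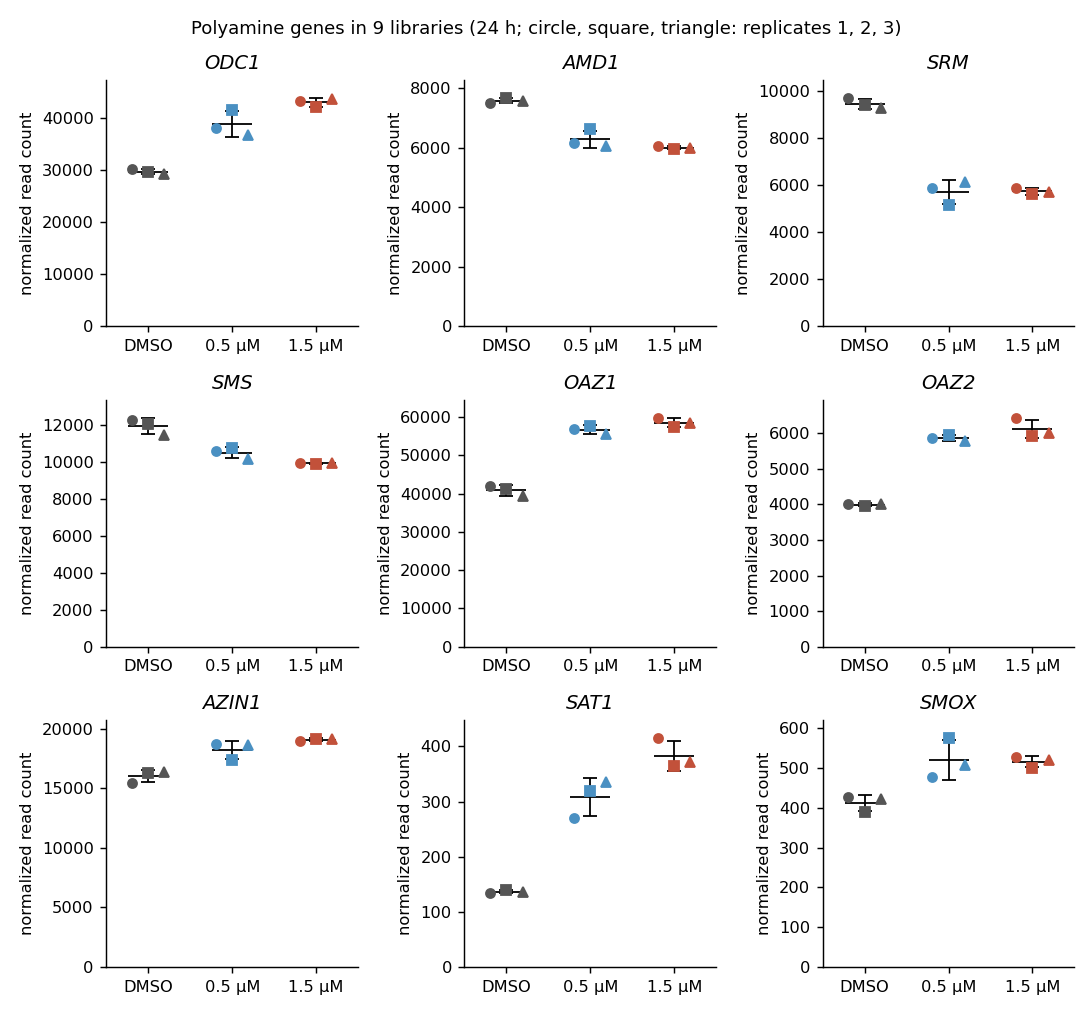
Normalized read counts of the 9 polyamine genes with counts in each library (circle, square and triangle for replicates 1, 2 and 3), with the group mean and SD as bars, on axes that start at 0. AMD1, SRM and SMS are lower in both JQ1 groups than in DMSO and the other 6 genes higher, with no overlap between DMSO and treated libraries.

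The genes that control ODC1 protein all rose. OAZ1, the main antizyme, had 42105, 41141 and 39285 normalized counts in DMSO, 56901, 57783 and 55485 at 0.5 µM, and 59716, 57470 and 58545 at 1.5 µM. The gap between the highest DMSO library and the lowest treated one was several times the spread within any group. The log2 fold change of OAZ1 was 0.47 ± 0.033 (SE) at 0.5 µM (limma, adjusted p = 4.60e-07) and 0.52 ± 0.033 at 1.5 µM (adjusted p = 1.59e-07). OAZ2, a second antizyme that is more weakly expressed in most tissues, had 4005, 3957 and 4021 normalized counts in DMSO, 5875, 5966 and 5781 at 0.5 µM, and 6424, 5932 and 6014 at 1.5 µM. It rose 1.47-fold and 1.53-fold, with log2 fold changes of 0.56 ± 0.035 (SE; limma, adjusted p = 2.23e-07) and 0.62 ± 0.035 (adjusted p = 7.27e-08). AZIN1, an ODC1-like protein without activity that binds antizyme and so frees ODC1, had 15481, 16275 and 16362 normalized counts in DMSO, 18749, 17386 and 18655 at 0.5 µM, and 18964, 19141 and 19161 at 1.5 µM. AZIN1 was the least changed gene of this group, and 0.5 µM replicate 2 came closest to the DMSO libraries. Its log2 fold change was 0.19 ± 0.036 (SE) at 0.5 µM (limma, adjusted p = 0.000858) and 0.25 ± 0.036 at 1.5 µM (adjusted p = 8.79e-05). These values describe RNA only, and the frameshift that makes antizyme protein was not measured.

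Both tested catabolic genes rose. SAT1, the spermidine and spermine acetyltransferase that starts polyamine breakdown and export, had 134.9, 140.0 and 135.5 normalized counts in DMSO, 269.7, 319.3 and 335.8 at 0.5 µM, and 414.4, 363.8 and 371.4 at 1.5 µM. The lowest treated library lay far above the highest DMSO library, and the 2 doses did not overlap. The log2 fold change of SAT1 was 1.16 ± 0.098 (SE) at 0.5 µM (limma, adjusted p = 1.88e-06) and 1.48 ± 0.098 at 1.5 µM (adjusted p = 2.09e-07). SAT1 rested on 133 to 410 reads a library, so that counting alone gives a relative SD of 8.67% in the shallowest case. SMOX, which oxidises spermine to spermidine, had 426.9, 388.8 and 421.5 normalized counts in DMSO, 476.2, 574.0 and 507.0 at 0.5 µM, and 526.7, 500.5 and 520.1 at 1.5 µM. Every treated library of SMOX lay above the DMSO libraries, the 2 doses overlapped, and 0.5 µM replicate 2 was the highest of all. Its log2 fold change was 0.33 ± 0.077 (SE) at 0.5 µM (limma, adjusted p = 0.00318) and 0.32 ± 0.077 at 1.5 µM (adjusted p = 0.00319). Without the 3 libraries marked by H19, the SMOX value at 1.5 µM was 0.34 (adjusted p = 0.0619, with 1 library left in that group, assumed to vary like the others). PAOX, the peroxisomal oxidase of acetylated polyamines, was listed at 0.27, 0.07 and 0.06 FPKM in DMSO, 0.07, 0.04 and 0.08 at 0.5 µM, and 0.02, 0.04 and 0.06 at 1.5 µM. The groups of PAOX overlapped or touched, and such values are too near 0 to compare.

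The doses were compared with each other to see whether 3 times as much JQ1 moved the same genes further. Of the 9 tested genes, only ODC1 passed the threshold between the doses, with a log2 fold change of 0.15 ± 0.043 (SE; 95% interval 0.054 to 0.25; limma, adjusted p = 0.0478). That is 1 of 9 genes where 12.7% of all tested genes passed (4.66% higher and 8.09% lower), and with FPKM in place of normalized counts the higher share of all calls went from 36.5% to 19.5%. The ODC1 call was lost in 12 of 20 alternatives. It did not hold when any 1 of 0.5 µM replicates 1 and 3 or 1.5 µM replicates 1, 2 and 3 was left out (log2 fold changes of 0.11 to 0.17, adjusted p of 0.0976 to 0.157), and without 0.5 µM replicate 2 it was 0.20 (adjusted p = 0.000348). SAT1 had the largest difference, 0.32 with an interval of 0.099 to 0.53 (adjusted p = 0.0607), and it passed without 0.5 µM replicate 2 (0.35, adjusted p = 0.045) or 0.5 µM replicate 3 (0.38, adjusted p = 0.045).

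Libraries of the 2 doses did not overlap in 5 genes (ODC1, AMD1, SMS, AZIN1 and SAT1), against 33.7% of all tested genes. The intervals give how far the doses could differ in the others: SRM differed by 0.0070 (interval -0.12 to 0.13), SMOX by -0.0051 (-0.18 to 0.17), OAZ1 by 0.046 (-0.028 to 0.12) and OAZ2 by 0.059 (-0.020 to 0.14) on the log2 scale. AMD1 differed by -0.064 (-0.14 to 0.015), SMS by -0.080 (-0.16 to -0.0046, limma, adjusted p = 0.151) and AZIN1 by 0.065 (-0.015 to 0.14). The direction of the SRM and SMOX differences changed with the processing or with 1 library left out. The spread was wider at 0.5 µM than elsewhere, with a median coefficient of variation over the 9 genes of 4.69% against 2.24% in DMSO and 1.99% at 1.5 µM. Over the 9 genes the median size of the difference between doses was 0.064, against 0.11 over all tested genes, and no polyamine gene was called with a 2-fold difference, against 0.228% of tested genes.

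Ratios of FPKM within a library compare the steps directly, and the pairs were chosen after the values were seen. ODC1 and OAZ1 rose side by side: ODC1 was 0.230, 0.231 and 0.241 of OAZ1 in DMSO, 0.216, 0.237 and 0.213 at 0.5 µM, and 0.234, 0.236 and 0.241 at 1.5 µM. These groups overlapped (exact two-sided permutation tests against DMSO, p = 0.3 and 0.6, where 3 against 3 libraries cannot go under 0.1), which does not show that the ratio stayed the same. SRM, in contrast, was 0.607 ± 0.00466 of ODC1 in DMSO, 0.278 ± 0.0468 at 0.5 µM and 0.251 ± 0.00727 at 1.5 µM. The ratio of SRM to SMS, the 2 synthases, was 1.11 ± 0.0217 in DMSO, 0.788 ± 0.0699 at 0.5 µM and 0.811 ± 0.0272 at 1.5 µM, so that SRM passed from above SMS to below it. SAT1 was 0.769 of SMOX in DMSO, 1.43 at 0.5 µM and 1.73 at 1.5 µM. AZIN1 was 0.0659, 0.0728 and 0.0760 of the summed antizymes in DMSO, 0.0613, 0.0534 and 0.0634 at 0.5 µM, and 0.0592, 0.0646 and 0.0594 at 1.5 µM. The last 4 ratios did not overlap between DMSO and either dose (exact permutation p = 0.1 each, the smallest 3 against 3 allow, and 0.15 after Benjamini-Hochberg adjustment over 24 tests of 8 ratios).

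**Figure D4:**
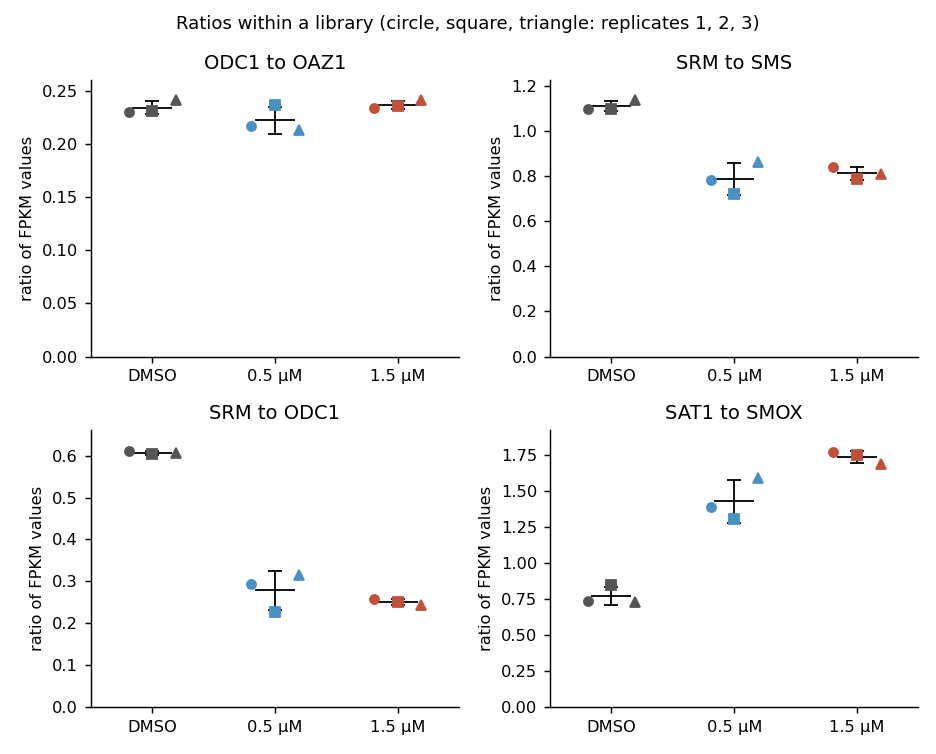
Ratios of FPKM values within each library for 4 pairs of polyamine genes (circle, square and triangle for replicates 1, 2 and 3), with group mean and SD, on axes that start at 0. ODC1 to OAZ1 overlaps between the groups, SRM to SMS and SRM to ODC1 are lower with JQ1, and SAT1 to SMOX is higher.

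The other genes of the pathway were taken by list. Around ornithine, 5 of the 6 tested genes passed at each dose, 2 higher and 3 lower, where 70.0% and 73.1% of all tested genes passed, with a median log2 fold change of -0.17 at 0.5 µM and -0.16 at 1.5 µM. The same shares of all genes stand behind the counts of every list that follows. AGMAT, named for an agmatine hydrolase activity that would yield putrescine, fell from 258 ± 15.3 normalized counts to 44.0 ± 13.2 and 40.2 ± 4.47 (log2 fold changes of -2.57 and -2.66). ASS1, of arginine synthesis, fell by 1.68 and 1.59 on the log2 scale. OAT, the mitochondrial ornithine aminotransferase, rose from 2924 ± 73.9 to 5518 ± 433 and 6289 ± 55.1 normalized counts (0.91 and 1.11). AZIN2, listed under its older symbol ADC and a second antizyme inhibitor, rose from 144 ± 15.6 to 294 ± 33.3 and 306 ± 17.7 (1.02 and 1.09), while OAZ3, the testis antizyme, did not pass (-0.29 and 0.17).

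Transport had the median furthest from 0 of these lists, with 6 of 8 tested genes lower and 2 higher at both doses and a median of -0.86 and -1.02, against -0.010 and -0.0030 over all tested genes. By the rule for named genes these were ATP13A4, a P5B-type ATPase (log2 fold changes of -1.65 and -1.93), SLC12A8 (-1.63 and -1.80) and SLC18B1, a vesicular polyamine transporter (-0.82 and -1.18). Named after their values were seen, SLC3A2 fell from 10105 ± 123 normalized counts to 4722 ± 139 and 4567 ± 147, and the cationic amino acid carriers SLC7A1 and SLC7A2 fell as well. The 2 genes that rose, ATP13A2, a lysosomal polyamine exporter (0.53 and 0.74), and its relative ATP13A3 (0.21 and 0.29), were also named after their values were seen. SLC18B1 alone of these 8 passed between the doses (-0.36, limma, adjusted p = 0.00609), where 12.7% of all tested genes passed.

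Of the 10 genes of S-adenosylmethionine supply and methionine salvage, the lower dose raised 3 and lowered 3, and the higher dose raised 4 and lowered 3, against 70.0% and 73.1% of all tested genes, with medians of -0.044 and -0.013. ADI1, a salvage dioxygenase for the sulfur left over from aminopropyl transfer, rose from 3488 ± 36.0 to 7757 ± 451 and 8599 ± 88.4 normalized counts (1.15 and 1.30). MAT2A, the main S-adenosylmethionine synthetase outside liver, fell by 0.27 and 0.37 on the log2 scale, and MAT1A, its liver form, fell from 54.8 ± 2.71 to 12.8 ± 4.05 and 16.5 ± 3.63 normalized counts. The hypusine pathway, which turns spermidine into a modified lysine of EIF5A, had 2 genes higher and 2 lower of 4 at both doses, where 70.0% and 73.1% of all tested genes passed. DOHH, its hydroxylase, fell by 0.64 and 0.76 on the log2 scale and EIF5A by 0.47 and 0.48, while EIF5A2 rose by 0.31 and 0.27. Among 4 other genes of polyamine acetylation, deacetylation and oxidation, AOC1, the diamine oxidase, fell by 1.36 and 1.32 on the log2 scale, to 46.0 ± 3.07 and 47.4 ± 3.07 normalized counts. SAT2 passed at 1.5 µM and not at 0.5 µM (-0.23 and -0.078), and HDAC10 and SATL1 passed at neither dose. Whether SAT2 differed between the doses was tested directly and did not pass (-0.16, limma, adjusted p = 0.0956).

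**Figure D5:**
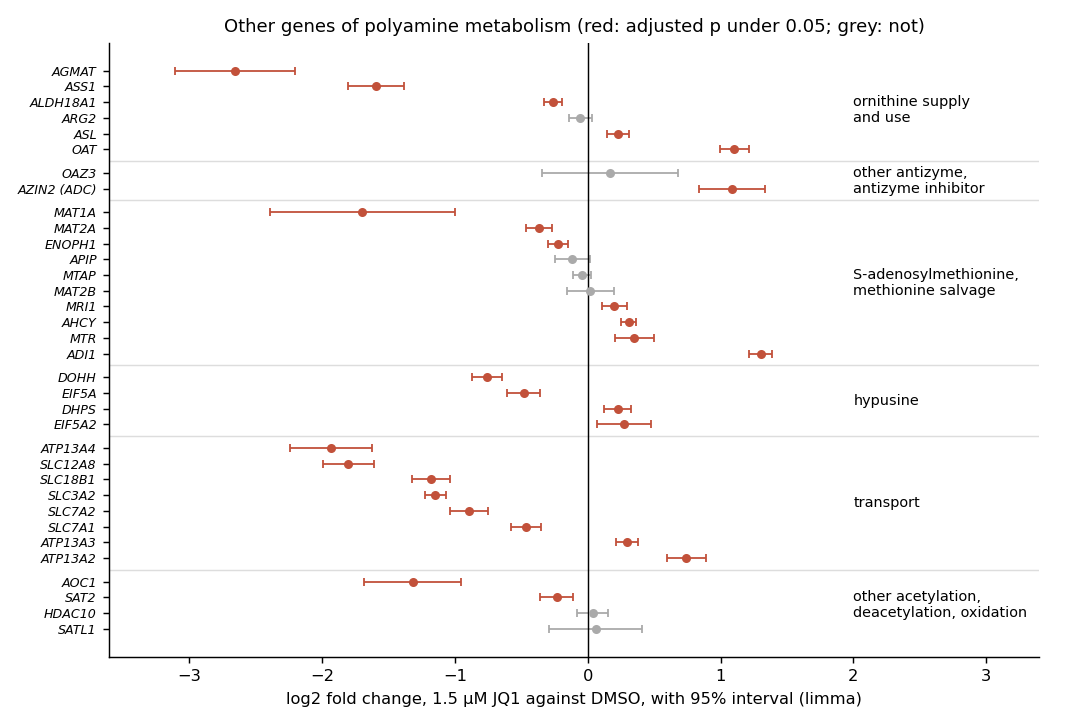
Log2 fold changes at 1.5 µM JQ1 against DMSO, with 95% limma intervals, for the tested genes of the 6 lists around polyamine metabolism (red, adjusted p under 0.05; grey, not). The transport list has 6 genes left of 0 and 2 right of it, both other antizyme genes lie right of it, and the other 4 lists hold genes on both sides.

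Of the MYC family and NFE2L2, 1 of the 4 tested genes rose and 2 fell at each dose. MYC fell by 0.49 and 0.67 on the log2 scale and MAX, its partner on the E-box, by 0.17 and 0.30, while MYCL rose by 0.67 and 0.60. The MAX call at 0.5 µM was close to the threshold (limma, adjusted p = 0.0401), and its libraries overlapped DMSO there. Between the doses MYC differed by -0.19 (limma, adjusted p = 0.00128), where 12.7% of all tested genes passed. NFE2L2 passed at neither dose. ODC1 rose, as given above, while MYC RNA fell, and RNA of SRM, AMD1 and SMS fell as well. The part of MYC in these changes was not tested, and MYC binding was not measured here.

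The genes most like ODC1 over the 9 libraries, by Pearson correlation of log2(normalized count + 1) among 9133 genes with a mean of at least 1000, were KDM1A, a histone demethylase (r = 0.993), NCAPG, a condensin subunit (r = 0.992), and ORC4, of the origin recognition complex (r = 0.991). The genes most like SAT1 among 9134 were RAPGEFL1 (r = 0.996), CCS, a copper chaperone (r = 0.996), and STK40 (r = 0.995). Such values were common, as 1418 genes had r over 0.95 with ODC1 and 1970 with SAT1, and all points share the same 3 groups.

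By chromosome, the synthesis genes lie on 2 (ODC1), 6 (AMD1), 1 (SRM) and X (SMS), the regulators on 19 (OAZ1), 15 (OAZ2) and 8 (AZIN1), and the catabolic genes on X (SAT1), 20 (SMOX) and 10 (PAOX). In the GENCODE annotation 5 of the 10 genes overlap another gene, and, because no source used here gives the strand setting of the counting, part of their reads could belong to a neighbour. For OAZ1 the opposite neighbour JSRP1 lay between 2.37 and 5.69 FPKM, for AZIN1 the antisense AZIN1-AS1 between 0.17 and 2.22, for OAZ2 no antisense neighbour exceeded 0.35, and ODC1 holds the small RNA SNORA80B at up to 4.92. PAOX shares 861 bases on its own strand with AL360181.3, which lay between 0.05 and 0.29 FPKM, about the level of PAOX itself. OAZ1 also shares 3966 bases with the annotated protein-coding gene AC005258.1 on its own strand, for which no value was used here. Listed processed copies of ODC1, AMD1 and SRM reached at most 0.30 FPKM (ODCP).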

How the data were processed

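Total RNA of 9 COR-L279 libraries was made with a stranded TruSeq kit, per the labels' protocols, and read trimming, alignment and counting tools (cutadapt, STAR, RSEM) with build hg19 are listed in the submitters' processing notes. Versions, annotation release and strand setting: not given in the sources used here. The authors deposited normalized read counts, a signal per gene equal to gene counts divided by 1 size factor per library: 100% of values came out as whole reads within 0.001. The authors also deposited FPKM values, used for levels, ratios and PAOX. Depth in genes was 60721187 to 88482001 reads per library, and counting error applies to these totals only. No column belonged to other samples.

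Differences were tested with limma 3.58.1 (R 4.3.3) on log2 of the normalized count plus 1. One model held all 9 libraries, used the mean-variance trend and had no replicate term. Genes with at least 10 normalized counts in at least 3 libraries (17514) were tested, two-sided, with Benjamini-Hochberg adjustment over all of them at 0.05. The log2(value + 1) scale understates changes of low genes. Libraries are labelled biological replicates, with no word on separate cultures, so p-values measure the spread between these libraries, which may be technical. The polyamine genes and the pathway and marker lists were chosen with earlier results of these data known. All 10 polyamine genes are named. Each pathway list gives up to 3 names, those called at 1.5 µM whose fold changes were largest, given a mean normalized count of 20 or more. Alternatives were pseudocounts of 0.1 and 5, other filters, FPKM, scaling by TMM or by the upper quartile, limma with library weights or without the trend, count models on the recovered reads (edgeR 4.0.16, DESeq2 1.42.0), a replicate block, and fits without single libraries or without the 3 marked by H19. A few genes of the lists are not reported here. Scripts were tested on simulated data.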

Additional observations from a re-analysis of the deposited data

How the results depend on the processing

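Against DMSO, 359 of 360 values of single polyamine genes over 20 alternatives kept their direction and side of the threshold, with SMOX at 1.5 µM the exception. Between the doses 157 of 180 did. There, the count of polyamine genes past the threshold was 0 in place of 1 with FPKM, TMM scaling, limma without trend, edgeR, the replicate block, the 6 libraries of both doses alone or without the 3 libraries marked by H19, and 3 with library weights (ODC1, SMS and SAT1). Leaving out single libraries gave 0 to 2. The count over all genes, 2233, was 892 with FPKM, 5238 with library weights, 1155 with the 6 libraries alone and 90 without the 3 libraries, and leaving out single libraries gave 995 to 3217. SRM turned to -0.025 with FPKM and -0.050 with library weights, and ranged from -0.068 (without 0.5 µM replicate 2) to 0.059 with single libraries left out, -0.011 without 1.5 µM replicate 1. SMOX turned to 0.084 with library weights and ranged from -0.065 to 0.069 (without 0.5 µM replicate 2) with single libraries left out, 0.016 without 1.5 µM replicate 2. The cause was not tested. Replicate numbers gave no clear pairing: same-numbered deviations correlated at -0.39 to 0.13, over 0.1 in 2 of 9 pairs. Those 2 pairs, at 0.12 and 0.13, had the highest values between DMSO and each dose, so this check does not settle whether libraries were paired. The block, under which ODC1 had an adjusted p of 0.0644 in limma between the doses, changed no other call of a polyamine gene. Of 192 ratio values 190 held. SRM to ODC1 at 1.5 µM was -1.31 (log2) without the 3 libraries, and antizymes to ODC1 and AZIN1 0.090 with normalized counts, an alternative chosen after seeing the data. Depth limits SAT1 and SMOX most, and PAOX altogether.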

Other observations

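Several genes of the pathway lists outside the normalized counts were near 0 in FPKM in all 9 libraries. The urea cycle genes ARG1 and OTC reached at most 0.07 and 0.04 FPKM, MYCN at most 0.03, and the transporter SLC47A1 at most 0.13, while SLC22A2 and SLC22A3 were listed at 0 throughout. ARG2, the mitochondrial arginase, was the arginase detected, at 29.5 to 36.0 FPKM.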
